A study of Mus musculus with 33 samples.

Results

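The genes that encode voltage-gated potassium, sodium and calcium channels were followed through 5 deposited count tables of mouse brain RNA. They were chosen by name: rows called Kcna to Kcnd, Kcnf to Kcnh, Kcnq, Kcns or Kcnv for potassium, Scn alpha or beta for sodium, and Cacna1, Cacna2d, Cacnb or Cacng for calcium. This gave 80 of the 38393 rows of each table, of which 41 belong to potassium, 13 to sodium and 26 to calcium channels. They carry 79 names, because Kcnb2 stands under 2 identifiers, ENSMUSG00000092083 and ENSMUSG00000090498. The sodium channel gene Scn2a is listed under its older name Scn2a1, which the naming rule does not take, so it enters only as a part of family totals.

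The mice were male C57Bl/6J animals of 1 month, and polyadenylated RNA of flash-frozen tissue was sequenced in 33 stranded libraries that the submitters describe as biological replicates. CyrMut mice carry the long noncoding RNA Cyrano with its miR-7 site mutated, CyrKO mice lack Cyrano, and Mir7DKO mice lack the microRNA genes Mir7a1 and Mir7b. Experiment 1A set 4 CyrMut cerebella against 3 wild-type (WT) cerebella. Experiment 1B set 4 CyrKO and 4 Mir7DKO cerebella against the same 4 WT cerebella. Experiment 2 set 3 Mir7DKO libraries against 4 WT libraries in cerebellum and again in cortex, and its WT and Mir7DKO libraries also allow cerebellum to be set against cortex. The WT libraries were made anew for each experiment, so no value was tested across experiments. The alleles are constitutive as far as the labels say, and whether cerebellum and cortex of the same number came from 1 mouse is not stated.

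Voltage-gated channels open when the membrane is depolarised. Sodium channel alpha subunits carry the rising phase of the action potential, potassium (Kv) channels end it and set the firing rate, and calcium channel alpha1 subunits turn it into calcium entry and transmitter release. Beta, alpha2delta and some gamma subunits shape where those pores go and how they gate, although several Cacng genes encode auxiliary subunits of AMPA-type glutamate receptors. The electrically silent Kv subunits of the Kcnf, Kcng, Kcns and Kcnv genes form no channel alone and join Kcnb subunits. Cerebellar cortex is dominated by small granule cells and by Purkinje cells that fire fast trains, and neocortex by projection neurons and several interneuron classes.

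MicroRNAs repress messenger RNAs through matches to their seed, bases 2 to 8 from the 5′ end. The mature miR-7 sequences of RefSeq (GRCm38.p6) are shown with the seed in capitals because they define the sites searched for in the channel genes. The Mir7-1 and Mir7-2 genes encode miR-7a and Mir7b encodes miR-7b. The genes named as lost in Mir7DKO mice do not include Mir7-2, so a loss of all miR-7 cannot be assumed.
miR-7a-5p: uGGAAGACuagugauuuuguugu
miR-7b-5p: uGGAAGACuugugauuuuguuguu
The sense strand of the longest annotated 3′ UTR of each gene was searched for GTCTTCC, which pairs with the seed, for TCTTCCA, which pairs with bases 2 to 7 and is followed by A, and for GTCTTCCA, which holds both and counts once. Of 79 channel rows with an annotated 3′ UTR, 23 held a site, which is 29.1%, and these 23 held 40 sites. Over all 20459 listed genes with a 3′ UTR the share was 23.4%. The median 3′ UTR was 1879 bases among the channel rows and 971 bases among all genes, and the shares were not matched on length. The 8-base match stood in 4 channel genes, whose sites are shown on the transcript strand with the match in capitals.
Cacna1e, chr1:154394923-154394952, minus strand: agtgctccttgGTCTTCCAgtcgagtcttt
Cacng7, chr7:3367770-3367799, plus strand: ccaaaacctccGTCTTCCAttttctggtac
Kcnf1, chr12:17174582-17174611, minus strand: gagctgcttgtGTCTTCCAgccctcccctg
Kcnq3, chr15:65992386-65992415, minus strand: ctgctttttggGTCTTCCAgagtgtggtca
A match describes the letters of the annotated 3′ UTR (GRCm38) and not a measured site.

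Libraries held 12.58 to 24.94 M counts in experiment 1A, 8.15 to 14.92 M in experiment 1B, 9.77 to 12.86 M in the cerebella and 6.89 to 10.46 M in the cortices of experiment 2. Cyrano, listed as 1700020I14Rik, stood at 75.2 to 88.5 CPM, a count scaled to library size, in CyrKO cerebella, against 1599 to 1959 CPM in their WT cerebella. It stood at 1906 to 2014 CPM in CyrMut cerebella, where a site and not the gene is altered, against 1568 to 1844 CPM in WT. Mature miR-7 is not measured by these libraries, so the Mir7DKO labels have no such check. Summed levels of 10 granule cell markers were 7554 to 7895 CPM in WT cerebella and 152 to 176 CPM in WT cortices of experiment 2, and those of 10 cortical projection neuron markers 186 to 201 CPM in WT cerebella and 5019 to 5574 CPM in WT cortices. The labelled tissues therefore carried their own markers. In bulk tissue fewer cells of a type and less RNA per cell cannot be told apart, and this holds for every tissue difference here.

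Most channel genes differed between cerebellum and cortex of WT mice, and more were lower in cerebellum than higher. Of 69 rows that passed the filter on low counts, 18 were higher in cerebellum (26.1%), 44 were lower (63.8%) and 7 did not pass the test (edgeR's quasi-likelihood test, Benjamini-Hochberg adjusted p of at most 0.05 over all genes). Among all 14001 genes tested, 37.3% were higher and 37.4% lower. With at least a 2-fold difference asked for as well, 9 of the 69 channel rows were higher and 37 of the 69 lower. By the same rule 1293 of all 14001 genes (9.24%) were higher and 2112 (15.1%) lower. The median log2 difference, cerebellum over cortex, was -1.11 for the channel rows and 0.01 for all genes, and the median size regardless of sign was 1.85 and 0.47. A gene passes the filter when 1 tissue alone has enough counts, so these counts describe the tested rows and not all 80.

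**Figure D1:**
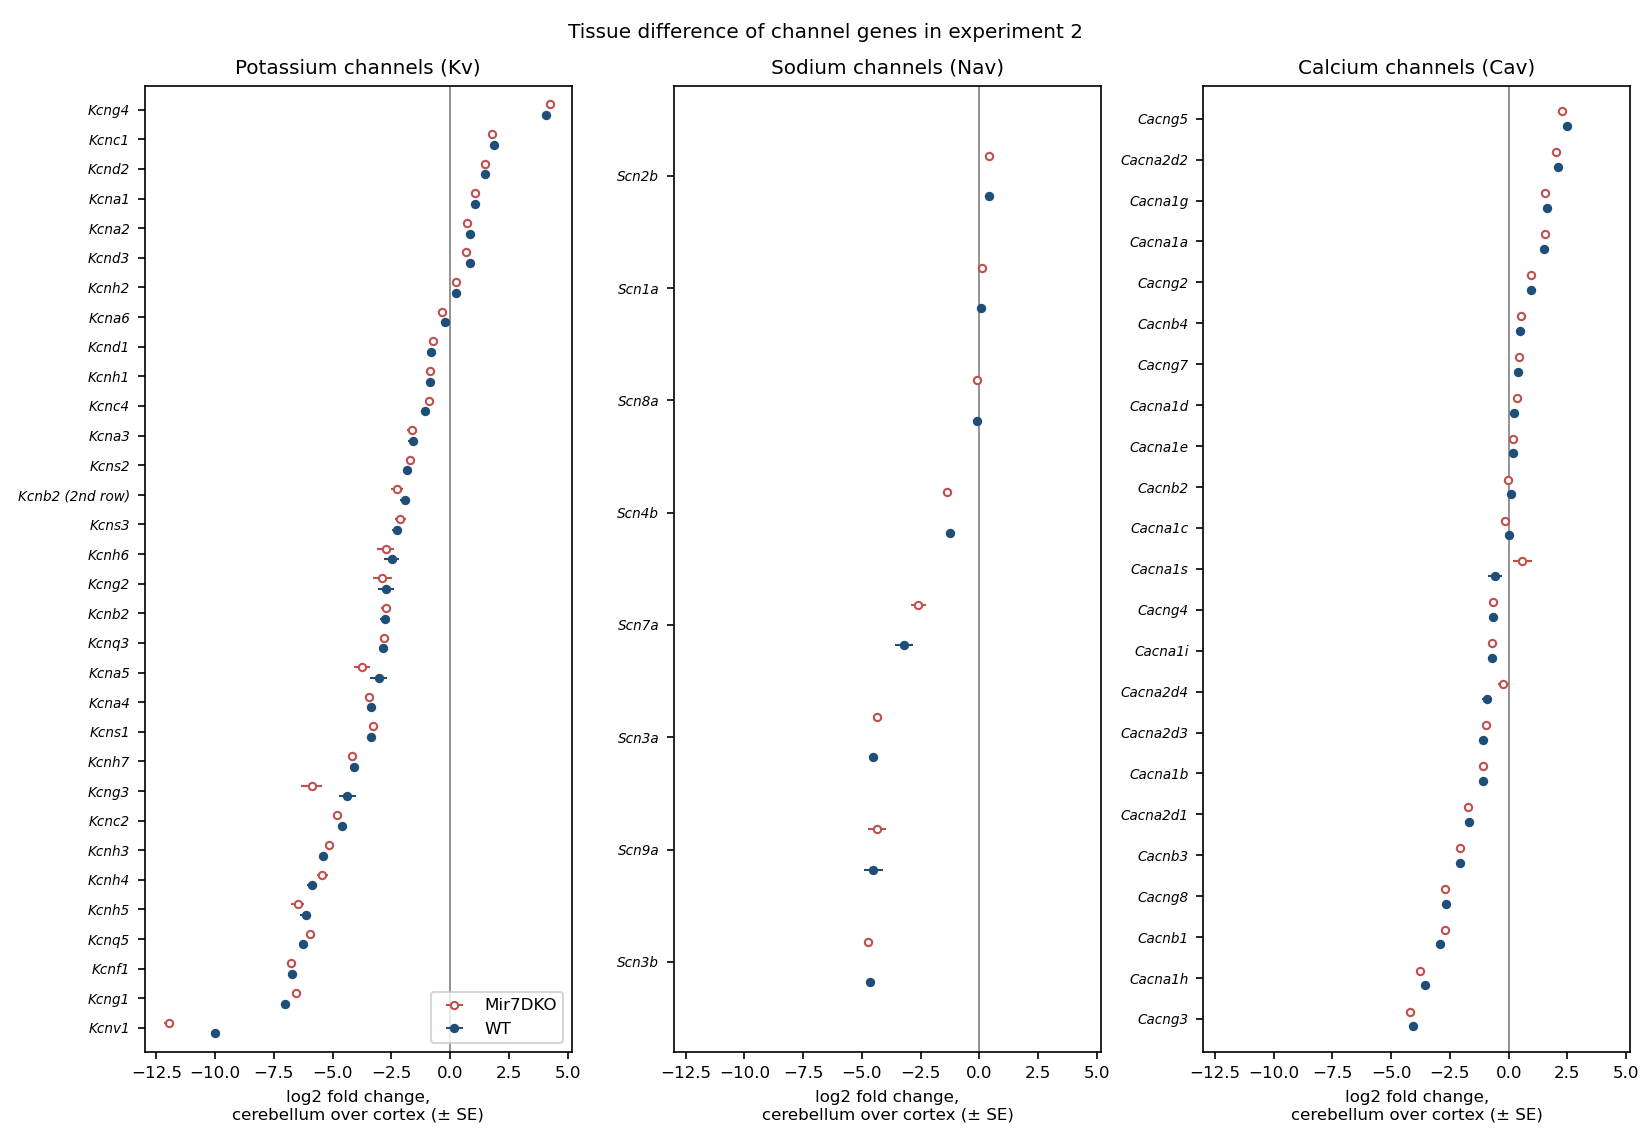
Log2 fold change of cerebellum over cortex (x axis, ± standard error) for the channel rows reported here that were tested in experiment 2, in Mir7DKO mice (open) and WT mice (filled), in 3 panels for potassium, sodium and calcium channels. The WT points run from Kcnv1 at -9.99 to Kcng4 at 4.09. The points of Kcnv1 and Kcng3 in Mir7DKO rest on 1 to 3 counts in cerebellum, and for points with few counts the bars are narrower than the counting error.

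Among potassium channels 8 of 36 tested rows were higher in cerebellum (22.2%), 27 were lower (75.0%) and 1 was not called. The shares over all genes were 37.3% higher and 37.4% lower. The largest rise was that of Kcng4, a silent subunit. It had 142, 147, 129 and 142 CPM in the WT cerebella, against 7.97, 9.39, 8.50 and 6.78 CPM in the WT cortices, a log2 difference of 4.09 ± 0.08 (SE; adjusted p = 1.6e-22). Every cerebellar library stood far above every cortical one.

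Kcnc1, a fast-deactivating channel of fast-spiking neurons, reached 729, 769, 714 and 739 CPM in the WT cerebella. The WT cortices held 220, 197, 204 and 193 CPM of it, a log2 difference of 1.85 ± 0.04 (adjusted p = 7.9e-21). Kcnc2 and Kcnc4 were lower in cerebellum. Kcnc2, known from cortical interneurons, had 4.51, 6.44, 5.10 and 7.14 CPM in cerebella and 156, 133, 149 and 136 CPM in cortices (-4.62 ± 0.09), and Kcnc4 averaged 40.2 ± 2.6 CPM in cerebella and 83.0 ± 7.0 CPM in cortices (SD, n = 4 each; -1.05 ± 0.07).

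The A-type channel genes Kcnd2 and Kcnd3, which carry fast inactivating currents in dendrites, were higher in cerebellum, by 1.48 ± 0.04 and 0.83 ± 0.05 on the log2 scale. Kcnd2 held 404 to 445 CPM in cerebella and 147 to 154 CPM in cortices. Kcnd3 held 193 to 212 CPM in cerebella and 108 to 121 CPM in cortices, and Kcnd1 was lower (-0.83 ± 0.12). The axonal low-threshold channel genes Kcna1 and Kcna2 were higher, by 1.05 ± 0.04 and 0.85 ± 0.05. Kcna1 had 745, 775, 732 and 780 CPM in cerebella and 385, 360, 364 and 347 CPM in cortices. Kcna3, Kcna4, Kcna5 and Kcna6 were lower in cerebellum, with log2 differences from -3.35 for Kcna4 to -0.24 for Kcna6. The ERG channel gene Kcnh2 was slightly higher, with 28.6 to 30.2 CPM in cerebella and 23.6 to 26.3 CPM in cortices (0.23 ± 0.07, adjusted p = 0.0059).

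The largest fall was that of the silent subunit gene Kcnv1. It gave 0, 0, 2 and 4 counts in the WT cerebella, which is 0 to 0.328 CPM, against 1138, 992, 1098 and 1038 counts or 139 to 158 CPM in the WT cortices (-9.99, adjusted p = 4.4e-24). With 6 counts in all the cerebella, the 95% counting interval of the log2 ratio ran from -11.572 to -9.001. It was near its limit of detection in every cerebellar group of the series, with 1 to 6 counts summed over each group. Kcng1 and Kcnf1, silent subunits as well, were also far lower. Kcng1 had 0.160 to 0.401 CPM in cerebella and 33.3 to 38.5 CPM in cortices (-7.04, counting interval from -8.06 to -6.29), and Kcnf1 had 0.574 to 2.37 CPM in cerebella and 140 to 146 CPM in cortices (-6.75 ± 0.12).

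Of the 9 silent subunit rows tested, 8 were lower in cerebellum (88.9%, beside 37.4% of all genes) and only Kcng4 was higher. Kcnv2 failed the filter but went the way of Kcng4: it had 4, 14, 11 and 10 counts in the WT cerebella and 0 in each of the 4 WT cortices, which makes it at least 8.28-fold higher in cerebellum, with 3 counts over the group as the floor. Both rows of Kcnb2, whose product silent subunits join, were lower too, by -2.78 ± 0.19 and -1.92 ± 0.22.

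Kcnq5 and Kcnq3, whose channels carry the M-current that holds back repetitive firing, were lower in cerebellum. Kcnq5 had 2.30, 1.99, 2.31 and 2.54 CPM in the WT cerebella and 187, 171, 171 and 178 CPM in the WT cortices (-6.27 ± 0.08, adjusted p = 9.7e-26). Kcnq3 averaged 7.08 ± 0.67 CPM in cerebella and 51.7 ± 3.0 CPM in cortices (SD, n = 4 each; -2.87 ± 0.09).

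Of 7 tested Kcnh genes, 6 were lower in cerebellum (85.7%, beside 37.4% of all genes). Kcnh5 (-6.14), Kcnh4 (-5.87) and Kcnh3 (-5.41 ± 0.10), of the EAG and ELK types, each stood below 4 CPM in every WT cerebellum. The counting interval was -6.94 to -5.51 for Kcnh5 and -6.70 to -5.22 for Kcnh4. In the WT cortices Kcnh3 held 113 to 128 CPM, Kcnh5 22.1 to 36.3 CPM and Kcnh4 17.4 to 26.9 CPM. Kcnh7 fell to 15.4 to 18.8 CPM in cerebella, against 264 to 301 CPM in cortices (-4.08 ± 0.06). Kcnh1 stood at 74.2 to 82.8 CPM in cerebella and 135 to 153 CPM in cortices (-0.87 ± 0.05), and Kcnh6 was rare in both tissues. Kcns1, Kcns2 and Kcns3 were lower by -3.39 ± 0.16, -1.84 ± 0.09 and -2.28 ± 0.20.

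**Figure D2:**
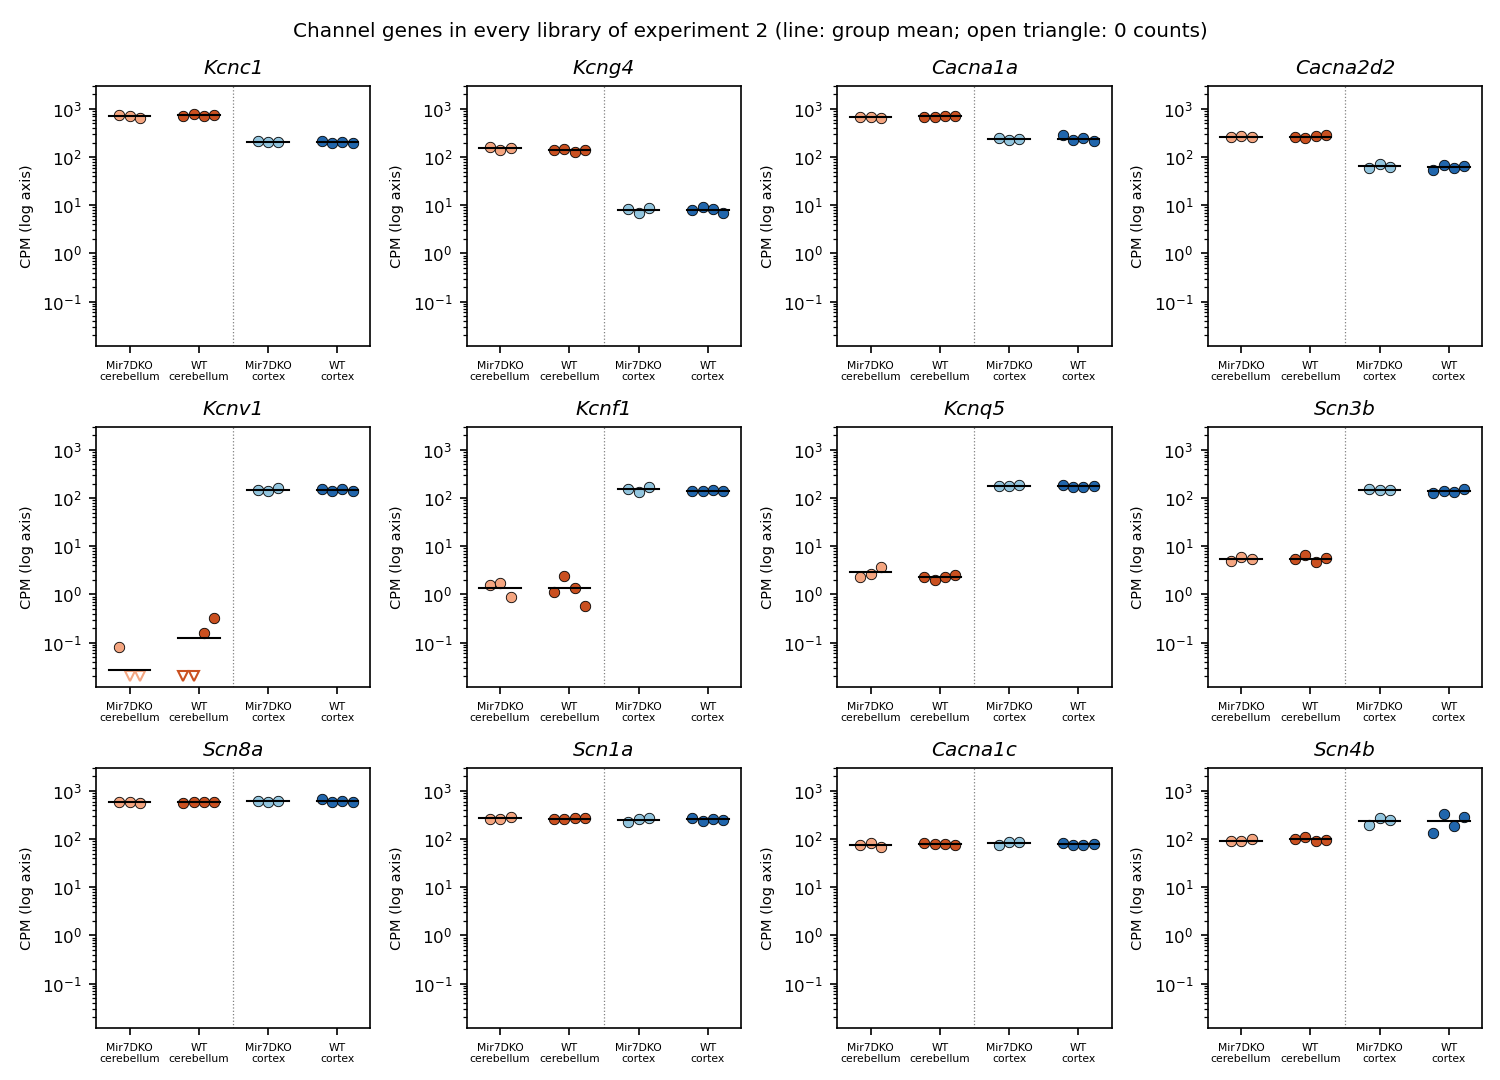
CPM on a log axis of 12 channel genes in each library of experiment 2, in Mir7DKO and WT cerebella and in Mir7DKO and WT cortices, with a line at each group mean and open triangles for libraries with 0 counts. Kcnc1 lies at 714 to 769 CPM in WT cerebella and 193 to 220 CPM in WT cortices, Kcnv1 at 0 to 0.328 CPM in WT cerebella and 139 to 158 CPM in WT cortices, while the WT cerebella and cortices overlap for Scn8a, Scn1a and Cacna1c.

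Of 10 tested sodium channel rows 1 was higher in cerebellum (10.0%), 6 were lower (60.0%) and 3 were not called. The shares over all genes were 37.3% higher and 37.4% lower. The adult alpha subunit genes Scn8a and Scn1a were not called. Scn8a, whose channel sits at axon initial segments and nodes, had 563, 590, 598 and 604 CPM in the WT cerebella and 678, 582, 632 and 592 CPM in the WT cortices (-0.08 ± 0.05, adjusted p = 0.096), and it passed the test with the second WT cortex left out (-0.11, adjusted p = 0.032). Scn1a, linked to Dravet syndrome in people, averaged 267 ± 7 CPM in cerebella and 257 ± 14 CPM in cortices (SD, n = 4 each; 0.05 ± 0.04, adjusted p = 0.30).

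Among alpha subunits Scn3a, Scn9a and Scn7a were lower in cerebellum. Scn3a, the embryonic-type subunit, had 3.01, 3.13, 3.51 and 3.45 CPM in cerebella and 72.5, 75.5, 77.8 and 74.9 CPM in cortices (-4.52 ± 0.08, adjusted p = 7.7e-23). Scn9a had 0 to 0.399 CPM in cerebella and 3.06 to 7.01 CPM in cortices (-4.52, counting interval from -5.67 to -3.67). Scn7a, a sodium-sensing channel of glia, had 0 to 1.20 CPM in cerebella and 3.46 to 8.35 CPM in cortices (-3.20 ± 0.38).

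Among beta subunits Scn2b was higher in cerebellum (404 to 455 CPM in cerebella and 301 to 328 CPM in cortices, 0.42 ± 0.04), and Scn3b and Scn4b were lower. Scn3b had 5.41, 6.44, 4.70 and 5.66 CPM in cerebella and 131, 143, 135 and 153 CPM in cortices (-4.67 ± 0.08, adjusted p = 2.5e-23). Scn4b, the subunit tied to resurgent sodium current, had 92.6 to 109 CPM in cerebella (-1.25 ± 0.16, adjusted p = 2.9e-07).

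The WT cortices spread widely for Scn4b, at 134, 335, 190 and 281 CPM. Summed levels of 9 striatal markers, all 9 called lower in cerebellum, moved the same way over those libraries, at 612, 1603, 1058 and 1387 CPM. The Mir7DKO cortices held 193, 279 and 250 CPM of Scn4b beside 968, 1528 and 1289 CPM of these markers. Kcna5, at 3.19, 10.5, 3.75 and 6.78 CPM, and Cacng4, at 45.0, 68.0, 48.0 and 63.4 CPM in the WT cortices, had the same order. The part of striatal tissue in these values was not tested. The lowest WT cortex still held more Scn4b than the highest WT cerebellum.

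**Figure D3:**
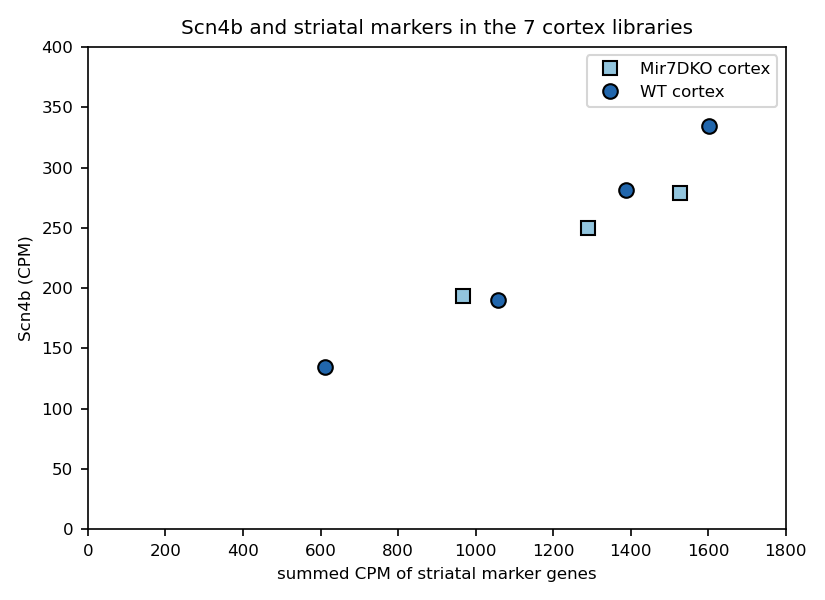
Scn4b in CPM (y axis) against the summed CPM of the striatal markers (x axis) in the 3 Mir7DKO and 4 WT cortex libraries of experiment 2. The library with 612 CPM of the markers holds 134 CPM of Scn4b and the library with 1603 CPM holds 335 CPM.

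Of 23 tested calcium channel rows 9 were higher in cerebellum (39.1%), 11 were lower (47.8%) and 3 were not called, beside 37.3% and 37.4% of all genes, so the share of higher rows was near that of all genes. The difference from the other families was not tested. Cacna1a, the P/Q-type pore of Purkinje cells and of presynaptic terminals, had 679, 696, 709 and 712 CPM in the WT cerebella and 281, 224, 244 and 220 CPM in the WT cortices (1.52 ± 0.06, adjusted p = 3.1e-17). Cacna1g, a low-voltage-activated T-type pore, had 289 to 306 CPM in cerebella and 87.9 to 108 CPM in cortices (1.65 ± 0.05). The other T-type genes were lower. Cacna1h averaged 4.87 ± 0.74 CPM in cerebella and 58.7 ± 4.8 CPM in cortices (SD, n = 4 each; -3.58 ± 0.10), and Cacna1i 95.7 ± 3.6 CPM in cerebella and 158 ± 11 CPM in cortices (-0.73 ± 0.05).

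The N-type gene Cacna1b was lower in cerebellum (83.3 to 88.7 CPM in cerebella and 175 to 202 CPM in cortices, -1.11 ± 0.05). The R-type gene Cacna1e (0.17 ± 0.04) and the L-type gene Cacna1d (0.21 ± 0.05) rose slightly, with adjusted p of 9.0e-04 and 0.0012. The L-type gene Cacna1c had 77.3 to 82.7 CPM in cerebella and 74.7 to 83.4 CPM in cortices (0.01 ± 0.05, adjusted p = 0.90). Cacna1s, the skeletal muscle L-type pore, stood at 0.738 to 1.20 CPM in cerebella and 1.20 to 1.58 CPM in cortices (-0.58 ± 0.30, adjusted p = 0.089). Cacna1d shares exon sequence with the protein-coding gene Chdh on the opposite strand. The same holds for Cacna1h with Tpsg1, Kcnh3 with Mcrs1 and Kcnh7 with Gca.

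Among auxiliary subunits Cacna2d2, whose loss gives the ataxic ducky mouse, had 257, 254, 272 and 285 CPM in the WT cerebella and 53.4, 70.1, 60.2 and 66.3 CPM in the WT cortices (2.09 ± 0.06, adjusted p = 6.6e-19). Cacna2d1, a gabapentin-binding subunit, went the other way, with 117 to 124 CPM in cerebella and 364 to 416 CPM in cortices (-1.68 ± 0.05). Cacna2d3 was also lower (-1.10 ± 0.06). Cacnb4, whose mutation gives the lethargic mouse, held 658 to 708 CPM in cerebella and 462 to 515 CPM in cortices (0.46 ± 0.04). Cacnb1 (-2.92 ± 0.06) and Cacnb3 (-2.09 ± 0.05) were lower, and Cacnb2 did not pass the test (0.08 ± 0.06, adjusted p = 0.18).

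Among the Cacng genes, Cacng5 had 60.5, 66.6, 62.1 and 59.8 CPM in the WT cerebella and 7.17, 13.6, 11.7 and 11.9 CPM in the WT cortices (2.49 ± 0.10, adjusted p = 3.4e-16). Cacng2, the stargazin gene whose loss removes AMPA receptors from granule cell synapses, had 246 to 262 CPM in cerebella and 127 to 138 CPM in cortices (0.96 ± 0.04). Cacng7 was higher by 0.41 ± 0.05. Cacng3 and Cacng8, the forebrain-rich members, were lower by -4.09 ± 0.08 and -2.64 ± 0.10, and Cacng4 by -0.67 ± 0.10.

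To compare genes with each other, levels were divided by the length of the merged exons of each gene and given as CPM per kb. In WT cerebella of experiment 2 Kcna1 averaged 159 ± 5 CPM per kb, Cacng7 96.8 ± 5.4 and Scn2b 91.6 ± 4.5 (SD, n = 4 each). Cacng7 and Scn2b lay about 1 SD apart. In WT cortices Kcna1 averaged 76.2 ± 3.3 CPM per kb, Cacng7 72.4 ± 2.6 and Scn2b 67.9 ± 2.5, each within about 2 SDs of its neighbours.

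Some families were led by the same gene in both tissues and others changed their leader. Kcng4 made up 99.3 ± 0.3% of the Kcng family in WT cerebella and 17.0 ± 2.0% in WT cortices, where Kcng1 led with 64.2 ± 0.8% (SD, n = 4 each). Kcna1 held 81.5 ± 0.4% of the Kcna family in WT cerebella and 64.3 ± 1.4% in WT cortices, and Kcnd2 held 78.5 ± 0.4% of the Kcnd family in WT cerebella and 66.9 ± 1.0% in WT cortices. In the Kcnh family Kcnh1 led in cerebella with 57.0 ± 1.3% and Kcnh3 in cortices with 26.8 ± 1.0%, close to Kcnh1 (24.9 ± 1.0%) and Kcnh7 (24.0 ± 0.8%). Kcns2 led the Kcns family in cerebella with 60.5 ± 4.3% and Kcns1 in cortices with 44.0 ± 1.2%, where Kcns2 had 40.4 ± 1.9%.

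The same 3 genes led the sodium channel alpha subunits in both tissues. With Scn2a1 in the family, that gene made up 46.2 ± 0.5% in WT cerebella and 39.0 ± 0.9% in WT cortices. Scn8a made up 32.5 ± 0.3% in WT cerebella and 34.0 ± 1.0% in WT cortices, and Scn1a 20.8 ± 0.4% in WT cerebella and 19.9 ± 0.2% in WT cortices. Scn3a added 5.22 ± 0.32% in cortices. The family total was 115 ± 3 CPM per kb in WT cerebella and 116 ± 5 CPM per kb in WT cortices. Among calcium pores Cacna1a made up 43.0 ± 0.5% of the alpha1 family in WT cerebella and 21.1 ± 1.2% in WT cortices, where Cacna1b, Cacna1e and Cacna1i each held between 15.9 and 18.6%. With the longest transcript as length Cacna1a held 23.5% in WT cortices. Shares in this family moved by up to 5.32 points there, so the order behind Cacna1a depends on the length used. In the alpha2delta family Cacna2d2 held 67.6 ± 1.3% in cerebella and 15.1 ± 2.0% in cortices, and Cacna2d1 held 19.6 ± 1.0% in cerebella and 59.2 ± 2.5% in cortices. Cacnb4 held 78.6 ± 0.9% of the Cacnb family in cerebella and 39.6 ± 1.4% in cortices. With the longest transcript in place of the merged exons, Cacnb3 led that family in cortex, with 37.4% beside 32.4% for Cacnb4.

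**Figure D4:**
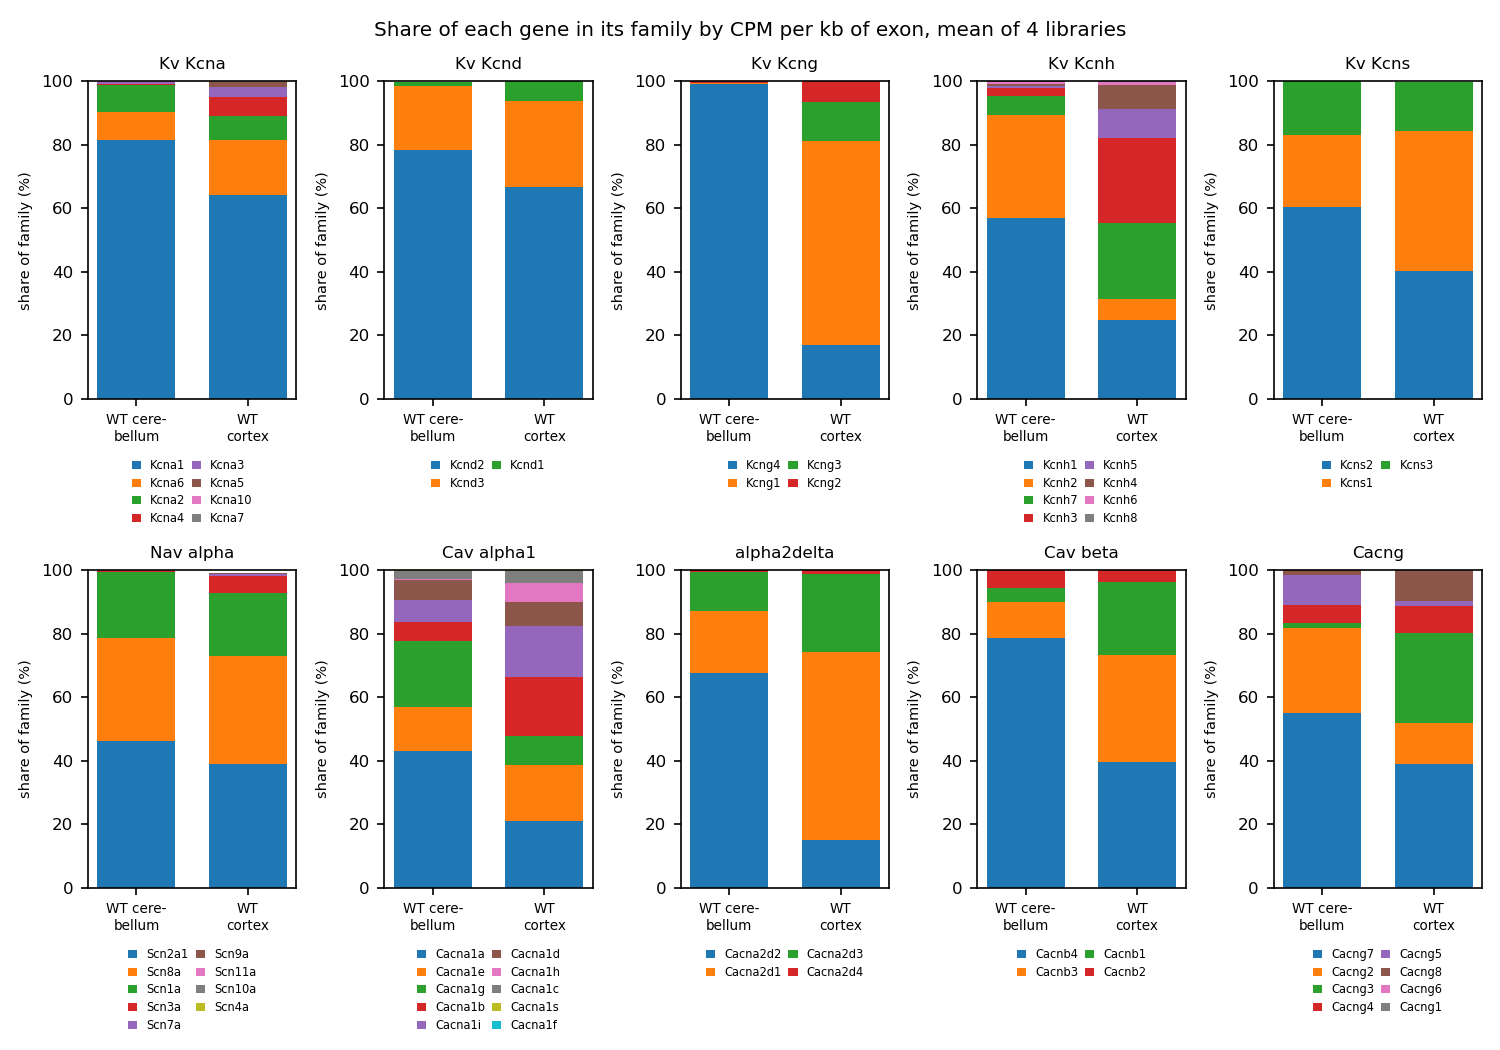
Share in percent (y axis) of each gene in its family by CPM per kb of merged exons, mean of 4 libraries, for WT cerebellum (left bar) and WT cortex (right bar) in 10 families. Kcng4 takes 99.3% of the Kcng bar in cerebellum and 17.0% in cortex.

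The same tissue comparison in Mir7DKO mice used none of these libraries. Of 69 rows tested, 18 were higher in cerebellum and 43 lower, where 34.1% of all 14431 genes were higher and 34.1% lower. All 61 rows called in Mir7DKO mice were called in WT mice in the same direction. The log2 difference was 4.24 ± 0.11 for Kcng4, 1.77 ± 0.07 for Kcnc1, 2.01 ± 0.08 for Cacna2d2, 1.53 ± 0.06 for Cacna1a, -5.98 ± 0.11 for Kcnq5 and -6.76 ± 0.14 for Kcnf1. Kcnv1 gave 1 count over the 3 Mir7DKO cerebella and 4107 over the 3 Mir7DKO cortices, a ratio of cortex over cerebellum of 5763 with a 95% counting interval of 1034 to 227700. The median gap between the log2 differences of both genotypes was 0.11. Cacna2d4, a low-level subunit, was called in WT mice (-0.93 ± 0.19, adjusted p = 1.8e-04) and not in Mir7DKO mice (-0.22 ± 0.23, adjusted p = 0.41), and the test of that gap gave an adjusted p of 0.99.

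No channel gene passed the test in any mutant. In CyrMut cerebella 0 of 65 tested rows were called, where 0.00673% of all genes were called, which is 1 of 14866. In CyrKO cerebella it was 0 of 60, with 0.0220% of all genes, and in Mir7DKO cerebella of experiment 1B 0 of 62, with 0.00713%. In experiment 2 it was 0 of 62 in Mir7DKO cerebella, with 0.198% of all genes, and 0 of 68 in Mir7DKO cortices, with 0.0436%. DESeq2 called 0 in each as well, and so did the authors' deposited tables at an adjusted p of 0.05. At an unadjusted p under 0.05 edgeR listed 3 rows in CyrMut cerebella (4.62%, beside 4.98% of all genes) and 8 in CyrKO cerebella (13.3%, beside 7.35%). It listed 3 in Mir7DKO cerebella of experiment 1B (4.84%, beside 3.68%), 3 in those of experiment 2 (4.84%, beside 6.78%) and 6 in Mir7DKO cortices (8.82%, beside 5.77%). CyrKO and Mir7DKO of experiment 1B share their WT libraries, so their values are not independent.

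The changes were small beside those between tissues. In each mutant comparison 1 to 3 tested rows differed by 0.5 or more on the log2 scale, and no row differed by 2-fold or more. The median log2 change lay between -0.03 in CyrKO cerebella and 0.02 in Mir7DKO cortices. The largest single value was that of Kcnh6 in CyrMut cerebella, 0.84 ± 0.47 with an adjusted p of 0.94. In simulated counts of the same 5 comparisons 84% to 96% of 2-fold changes and 56% to 76% of 1.5-fold changes were recovered, so smaller changes may not have been detectable. The simulations changed 50 genes at each fold size, where the mutant fits called 1 to 28 genes in all. The adjusted threshold is easier to pass when more genes change, so these shares may overstate what could be detected here. The changed genes were drawn at random from all tested genes and not at the levels of the channel rows. Recovery for channel rows with few counts was therefore not measured.

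**Figure D5:**
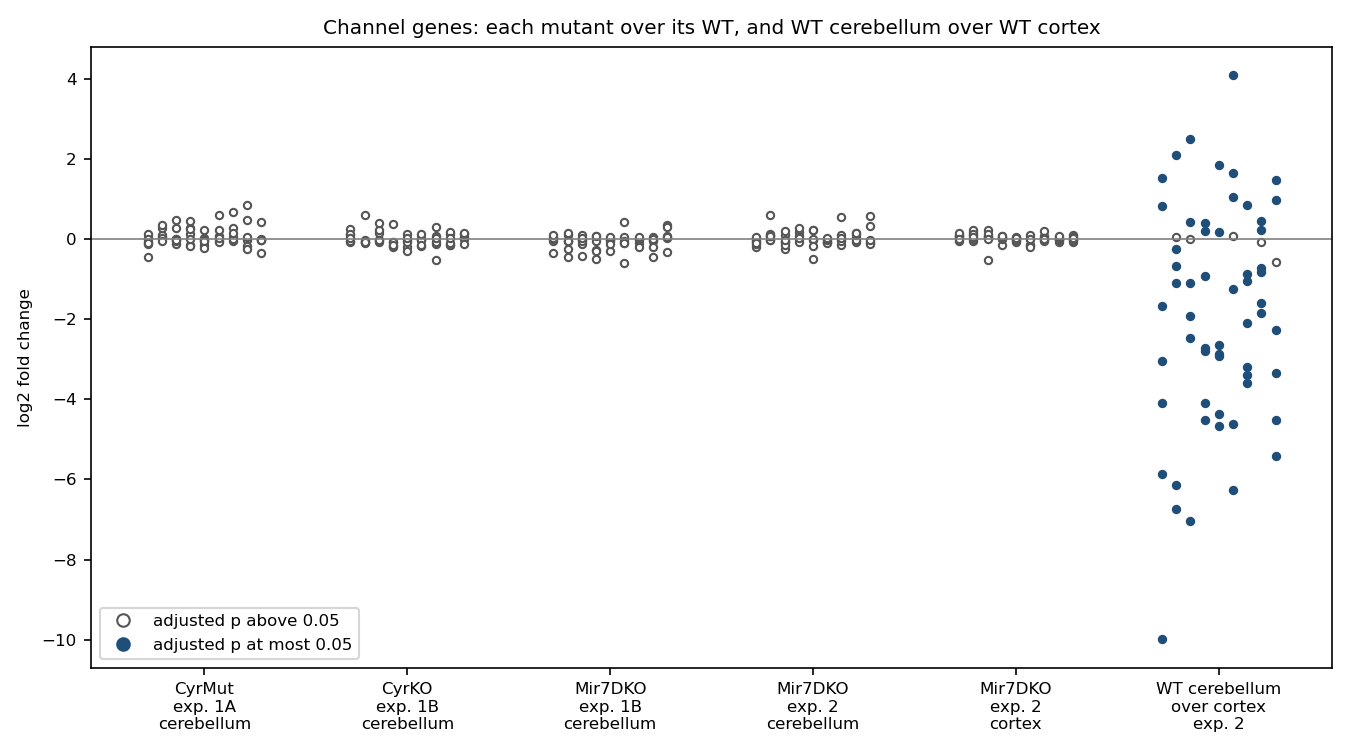
Log2 fold change (y axis) of each tested channel row in CyrMut, CyrKO and Mir7DKO tissue over the WT of the same experiment, and for scale in WT cerebellum over WT cortex. Open points have an adjusted p above 0.05. The mutant points lie between -0.60 and 0.84, and those of the tissue comparison between -9.99 and 4.09.

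Rows among the smallest p in each mutant are given as values that did not pass the test. In CyrMut cerebella Kcnc2 had 6.62, 5.27, 5.63 and 4.24 CPM, against 4.10, 3.37 and 3.23 CPM in WT (0.60 ± 0.17). Kcnq5 had 2.65 to 3.49 CPM in CyrMut and 2.02 to 2.37 CPM in WT (0.49 ± 0.17), and Cacng7 232 to 265 CPM in CyrMut and 255 to 294 CPM in WT (-0.16 ± 0.07). The adjusted p was 0.94 for each. For Kcnc2 and Kcnq5 the groups did not overlap, at levels of a few CPM. These rows were taken for their small p, and the share of all genes whose groups do not overlap was not counted.

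In CyrKO cerebella Cacna2d1 had 143, 150, 167 and 155 CPM, against 126, 142, 125 and 128 CPM in WT (0.24 ± 0.06). Every CyrKO library stood above every WT library, and here too the share of all genes that separate this way was not counted. Cacna1h had 3.18 to 3.69 CPM in CyrKO and 3.74 to 6.06 CPM in WT (-0.52 ± 0.17). The adjusted p was 0.68 for both.

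In Mir7DKO cerebella of experiment 1B Cacna1d had 120, 109, 102 and 101 CPM, against 135, 121, 146 and 117 CPM in WT (-0.27 ± 0.08). Cacna1e had 578, 557, 490 and 400 CPM in Mir7DKO and 623, 663, 614 and 570 CPM in WT (-0.29 ± 0.10). The adjusted p was 1.0 for both.

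In Mir7DKO cerebella of experiment 2 Cacnb1 had 19.6 to 24.6 CPM in Mir7DKO and 17.3 to 20.7 CPM in WT (0.22 ± 0.10), and Kcnd3 174 to 194 CPM in Mir7DKO and 193 to 212 CPM in WT (-0.12 ± 0.05). The adjusted p was 0.67 for both, and both pairs of groups overlapped. In Mir7DKO cortices Kcng1 had 41.0, 42.4 and 45.0 CPM, against 33.3, 38.5, 36.7 and 37.4 CPM in WT (0.23 ± 0.07). Kcnh1 had 124 to 135 CPM in Mir7DKO and 135 to 153 CPM in WT (-0.14 ± 0.06), and Cacna2d4 2.96 to 4.45 CPM in Mir7DKO and 4.03 to 6.24 CPM in WT (-0.52 ± 0.20). Their adjusted p lay between 0.80 and 0.85.

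Whether the Mir7DKO change differed between cerebellum and cortex was tested in 1 fit of the 14 libraries of experiment 2, and 0 of 73 channel rows were called, where 0.155% of all genes were. The smallest p were those of Cacna2d4 (0.70 ± 0.30), Cacna1s (1.15 ± 0.50) and Cacnb1 (0.21 ± 0.10), as cerebellar minus cortical log2 change. Their adjusted p lay between 0.99 and 1.0.

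No row with a miR-7 site was called in Mir7DKO tissue. In cerebella of experiment 1B the 21 tested rows with a site had a median log2 change of -0.05, beside -0.01 for the 40 rows with none. In cerebella of experiment 2 the 21 rows with a site had a median of 0.02 and the 40 with none -0.01. In cortices the 20 rows with a site had a median of 0.04 and the 47 with none 0.01. Cacna1e, which carries the 8-base site printed above and 2 further sites, had log2 changes of -0.29 ± 0.10 and -0.03 ± 0.05 in the cerebella of experiments 1B and 2 and -0.01 ± 0.05 in cortices. In the same order Cacng7 had 0.06 ± 0.10, 0.08 ± 0.06 and 0.06 ± 0.05, and Kcnq3 had -0.32 ± 0.29, 0.09 ± 0.16 and 0.03 ± 0.09. Kcnf1, nearly absent from cerebellum, had -0.25 ± 0.28, 0.06 ± 0.37 and 0.09 ± 0.06. None of these passed the test, with adjusted p from 0.88 to 1.0.

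Genes that work with these channels were followed as a list of 86 partners: Kv auxiliary subunits, calcium channel regulators, sodium channel-binding FGFs, axon initial segment scaffolds, and other potassium, HCN and leak channels. In WT mice 28 of 74 tested partners were higher in cerebellum (37.8%), 39 were lower (52.7%) and 7 were not called, where 37.3% of all genes were higher and 37.4% lower. The share of higher partners was thus that of genes at large. Among 12 tested Kv auxiliary subunits 6 were higher and 6 lower. Among 12 axon initial segment and node genes 7 were higher, 3 were lower and 2 were not called, with a median log2 difference of 0.17. Among 9 calcium-activated potassium channels 1 was higher, 7 were lower and 1 was not called, with a median of -0.82, where the median of all genes was 0.01. These lists are small and were not tested as groups.

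The largest rises at 1 CPM or more were those of Stac, a regulator of L-type channel inactivation and trafficking (19.0 ± 0.5 CPM in cerebella and 1.32 ± 0.85 CPM in cortices, 3.83 ± 0.20), of the two-pore channel genes Kcnk10 (2.92 ± 0.10) and Kcnk3 (2.17 ± 0.07), and of the inward rectifier gene Kcnj12 (2.71 ± 0.08). The largest falls were those of the inward rectifier gene Kcnj4 (0.209 ± 0.153 CPM in cerebella and 107 ± 4 CPM in cortices, -8.85 with a counting interval from -9.98 to -8.04), the sodium-activated channel gene Kcnt2 (-6.08 ± 0.13), Kcnip2 (-5.74 ± 0.11) and the two-pore channel gene Kcnk4 (-4.26 ± 0.23). Kcnip2 encodes a calcium-binding subunit of the Kcnd channels, and it averaged 2.44 ± 0.53 CPM in cerebella and 132 ± 15 CPM in cortices (SD, n = 4 each), where Kcnd2 itself was higher in cerebellum. Of the other Kcnip and Dpp genes on the list, Kcnip1 (1.39 ± 0.08), Kcnip4 (1.08 ± 0.05), Dpp6 (0.52 ± 0.04) and Dpp10 (0.15 ± 0.05) were higher in cerebellum. Kcnip3 was lower (-0.35 ± 0.04).

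No partner was called in a mutant against its WT. In the test of whether the Mir7DKO change differed between tissues, 1 of 79 partners was called, the KCNE-type auxiliary subunit gene Kcne2 (8.40 ± 1.38, adjusted p = 0.0077). It had 0.237 to 7.11 CPM in Mir7DKO cerebella and 0.0820 to 0.189 CPM in WT cerebella, and 0 to 0.296 CPM in Mir7DKO cortices and 0.421 to 3.88 CPM in WT cortices. At such levels the SE can fall short of the counting error. Over all genes this test called 23, and 1 with the fourth WT cortex or the second Mir7DKO cortex left out. Whether Kcne2 stayed called under the alternatives was not examined. Kcne2 is also a choroid plexus marker. Summed levels of the 14 choroid plexus markers were 1473, 1086 and 213 CPM in the Mir7DKO cerebella and 213 to 257 CPM in the WT cerebella of experiment 2, and 264 to 282 CPM in the Mir7DKO cortices and 261 to 962 CPM in the WT cortices. Of these markers 5 of 10 tested were higher in Mir7DKO cerebellum, where 0.156% of all genes were, which is 22 of 14146. The markers also spread in experiment 1A, at 252 to 2532 CPM in CyrMut and 195 to 858 CPM in WT cerebella. Their part in the Kcne2 value was not tested.

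The channel genes that failed the filter in every comparison were Cacna1f, Cacng1, Kcna10, Kcna7, Kcnh8, Scn10a and Scn4a, which gave at most 11 counts in any library of the series. Cacna1f is the retinal L-type pore, and Scn4a and Cacng1 are skeletal muscle subunits. In the WT tissue comparison Cacng6, Kcnq1, Kcnv2 and Scn11a also failed it. Scn11a, a sodium channel of sensory neurons, gave 18, 13, 11 and 16 counts in the WT cerebella and 3, 4, 3 and 1 counts in the WT cortices. Cacng6 gave 0 counts over the WT cerebella and 28 over the WT cortices, which makes it at least 14.7-fold lower in cerebellum by the same floor of 3 counts over the group.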

How the data were processed

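The authors deposited 5 tables of raw counts of reads per gene, with DESeq2 log2 fold changes and adjusted p-values beside them, per the file headers. STAR 2.4, DESeq2 1.10, HTSeq 0.6.1p1 and the builds mm10 and GRCm38 are named in the submitters' processing notes. The sources used here name neither the strand setting nor the annotation of the counting. Exons of 19 channel genes overlap a gene on the opposite strand, so their counts are uncertain to that extent. In 1 table the record of Myo15 lacked a cell, so 2 of its columns hold values of another kind there, which was corrected. The WT libraries of experiment 1B stand in both of its tables.

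The tests ran on the raw counts in R 4.3.3 with edgeR 4.0.16: TMM factors, filterByExpr at 10 counts, the quasi-likelihood F-test without covariates on each comparison's own libraries, and Benjamini-Hochberg adjustment over every gene tested, called at 0.05. Standard errors are the size of the log2 change over the root of F. They can fall short of the counting error where counts are few, so WT tissue differences with at most 20 counts in a tissue are given with an exact 95% counting interval. CPM use TMM-scaled library sizes, over all 14 libraries for experiment 2. Lengths come from GENCODE M21 (GRCm38), where 79 of 80 rows have one. Intervals and floors cover counting error only. P-values weigh each group difference against the spread between libraries. The biological coefficient of variation was 5.13% and 6.75% in the tissue comparisons of WT and Mir7DKO and 5.56% to 9.79% in the mutant comparisons. Every pair of libraries within a group differed by more than sampling noise.

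The channel genes and the lists were chosen with earlier results of these data known. Genes named are the 12 largest rises and falls between WT tissues at 1 CPM or more, the highest per length in each family, the 3 smallest p in each mutant, the 4 largest partner rises and falls, and genes failing every filter. Others were chosen after their values were seen, and some genes that this rule takes are not reported here. DESeq2 1.42.0, RLE and upper-quartile scaling, no filter, leaving out each library, a replicate block, all 14 libraries in 1 fit and another gene length were the alternatives. The fits were tested on simulated counts with 50 genes changed at each fold size.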

Additional observations from a re-analysis of the deposited data

Results flagged for a closer look

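In 76 groups of 4 libraries of named channel genes, 2 had a library far from the others by Dixon's 95% criterion, where chance gives about 1 in 20. Cacng7 had 216.5 CPM in the second WT cerebellum of experiment 2 and 241 to 245 CPM in the others. Cacna2d1 had 141.7 CPM in the second WT cerebellum of experiment 1B and 125 to 128 CPM in the others.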

How the results depend on the processing

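The counts of channel rows higher and lower in WT cerebellum were 18 and 44, also with RLE or upper-quartile scaling. They were 20 and 46 with DESeq2, 21 and 47 with no filter, and 20 and 45 with all 14 libraries in 1 fit. Over all genes the main fit called 10455 of 14001 tested, 5218 of them higher. DESeq2 called 10537 of 19086 (5064 higher) and the fit with no filter 11894 of 23488 (6007 higher). The fit of all 14 libraries called 10838 of 14886 (5372 higher), RLE scaling 10443 and upper-quartile scaling 10448 of 14001. The tested sets differ, so these counts do not share 1 base. Asking for at least 2-fold as well left 9 higher and 37 lower in the main fit, where 9.24% and 15.1% of all genes were. Leaving out each library in turn gave 18 to 19 higher and 44 to 45 lower, and 17 to 19 and 44 to 45 in Mir7DKO mice. Over all genes these fits called 10190 to 10446 of 14031 to 14366 tested in WT mice. In Mir7DKO mice they called 9251 to 9965 of 14656 to 14873. Channel rows called in each mutant and in the test between tissues stayed at 0 under DESeq2, RLE, no filter, the block and each library left out. Over all genes these fits called 0 to 184. Same-numbered libraries did not deviate together in every pair (lowest correlation -0.216, highest 0.305), so the numbers were not taken to pair samples. With a replicate block the counts were 18 and 44 in WT and 18 and 43 in Mir7DKO mice. Over all genes the block fits called 10394 of 14001 in WT and 10066 of 14431 in Mir7DKO mice. In the Mir7DKO tissue comparison each cerebellum correlated best with the cortex of its own number (3 of 3), at only 0.034 to 0.082. In Mir7DKO against WT cortices each Mir7DKO cortex correlated best with the WT cortex of its own number (3 of 3), at only 0.049 to 0.104. Both are weak hints from the data and not from the design, and the best match of the other libraries was not sought. No named channel gene reversed its direction under the alternatives run, and among them Scn8a alone crossed the threshold. With the longest transcript as length, 17 leading shares moved by more than 1 SD, most for Cacnb4 in WT cerebellum (69.8% in place of 78.6%). Depth limits Kcnv1, Kcng1, Kcng3 and Scn9a, whose cerebellar levels rest on a few counts.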
